A study of Homo sapiens with 2 samples.

Results

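PMAIP1, BCL2L11 and BIK were the BH3-only genes of the authors' table of TCF4 peaks in TMD8 cells, and every peak that the table named for one of them was taken. They held 12 of the 661 distinct peaks, 8 at PMAIP1, 3 at BCL2L11 and 1 at BIK. TMD8 is an established lymphoma cell line, from a diffuse large B-cell lymphoma (DLBCL) that resembles activated B cells (ABC), and has no copy number gain of TCF4 per the labels. It carried a TCF4 construct inducible by a tetracycline-type drug, and both libraries of the series came from cells given 60 ng/ml doxycycline for 24 hours. One library was the TCF4 chromatin immunoprecipitate (ChIP) and the other the whole cell extract (input, headed IC in the table). Uninduced cells were not analysed here, so the values describe cells with added TCF4. With 1 library of each kind, no value has a replicate error and no test between conditions was possible.

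BH3-only proteins start the mitochondrial pathway of apoptosis. They bind through their BH3 helix to the anti-apoptotic proteins of the BCL2 family, such as BCL2 and MCL1, and so free the effectors BAX and BAK, which permeabilize the outer mitochondrial membrane. PMAIP1 encodes NOXA, a p53-inducible protein that binds chiefly MCL1. BCL2L11 encodes BIM, which binds all the main anti-apoptotic members and is needed for the removal of autoreactive and surplus lymphocytes. BIK encodes a BH3-only protein anchored mainly in the endoplasmic reticulum. TCF4 (E2-2) is an E protein, a basic helix-loop-helix factor that binds the E-box, CANNTG.

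The 12 peaks of the BH3-only genes held 1817 ChIP reads and 259 input reads, of 71988 and 12661 in all 661 peaks. Enrichment is given as the fold of ChIP over input reads after the authors' library scaling of 1.31, with an exact 95% interval that covers counting error only. The fold ran from 5.69 to 14.3 over these 12 peaks, with a median of 8.94, and from 2.14 to 38.6 over all peaks, with a median of 6.36. The lower bound of the interval lay above 2 in 12 of the 12 peaks, against 85.5% of all peaks. It lay above 3 in 12 of 12 against 62.9%, and above 4 in 9 of 12 against 43.9%, where the exceptions were PMAIP1 peaks 2, 6 and 8. The authors called every peak of the table from these libraries, so these shares are no independent test of binding. All 3 genes were marked Up in the authors' signature, as were 229 of the 275 genes of the table (83.3%), and the sources used here do not give what Up was measured on.

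None of the 12 peaks was in the authors' promoter class, which reached 2000 bp from a transcription start site (TSS) and held 36 of the 661 peaks (5.45%). The promoters are the points from which the distances below are counted, so their sequences, from 250 bases before to 50 bases after the TSS, are shown for reference. They are RefSeq's for GRCh38.p14, on the plus strand, and matched 2 of the 3 genes. RefSeq gives PMAIP1 a length of 4310 bp there and BCL2L11 one of 47532 bp, against 4347 and 47532 bp implied by the authors' distances, so the PMAIP1 start may not be the same base. Capitals mark the 50 bases from the TSS on.
PMAIP1, chr18:59899746-59900045: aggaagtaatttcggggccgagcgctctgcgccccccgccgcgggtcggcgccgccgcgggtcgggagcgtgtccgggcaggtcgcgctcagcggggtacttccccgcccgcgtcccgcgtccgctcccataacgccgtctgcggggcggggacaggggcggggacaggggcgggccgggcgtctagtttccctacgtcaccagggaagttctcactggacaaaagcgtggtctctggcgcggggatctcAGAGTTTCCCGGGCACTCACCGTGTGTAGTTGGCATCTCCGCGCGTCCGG
BCL2L11, chr2:111120664-111120963: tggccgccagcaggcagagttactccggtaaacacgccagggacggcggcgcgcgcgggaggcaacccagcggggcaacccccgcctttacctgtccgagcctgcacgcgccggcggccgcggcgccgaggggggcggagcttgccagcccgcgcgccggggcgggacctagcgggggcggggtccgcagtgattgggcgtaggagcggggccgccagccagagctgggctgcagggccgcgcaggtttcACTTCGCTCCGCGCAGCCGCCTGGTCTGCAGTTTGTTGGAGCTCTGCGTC
Both windows were rich in G and C, 71.3% at PMAIP1 and 74.7% at BCL2L11, where the median over 35116 RefSeq promoters was 58.7%. They held 42 and 39 CpG dinucleotides against a median of 14. The letters CANNTG, which read the same on both strands, occurred in neither window, and 68.7% of the promoters held at least 1 match. That describes these 300 bases only. The sequence under the peaks themselves needs the hg19 genome and was not analysed here, nor was their place in an exon or intron.

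At PMAIP1 the 8 peaks lay on both sides of the gene and none within it. Numbered by position on chromosome 18 (hg19), peaks 1 to 6 were upstream and peaks 7 and 8 downstream. The deposited distances imply a gene of 4347 bp, and the peaks spanned 273 kb around it. The nearest, peak 6, lay 26821 bp before the TSS, and the farthest, peak 8, lay 175898.5 bp after it. The 6 upstream peaks fell in a stretch of 70.7 kb, while the 2 downstream peaks were 124625 bp apart.

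**Figure D1:**
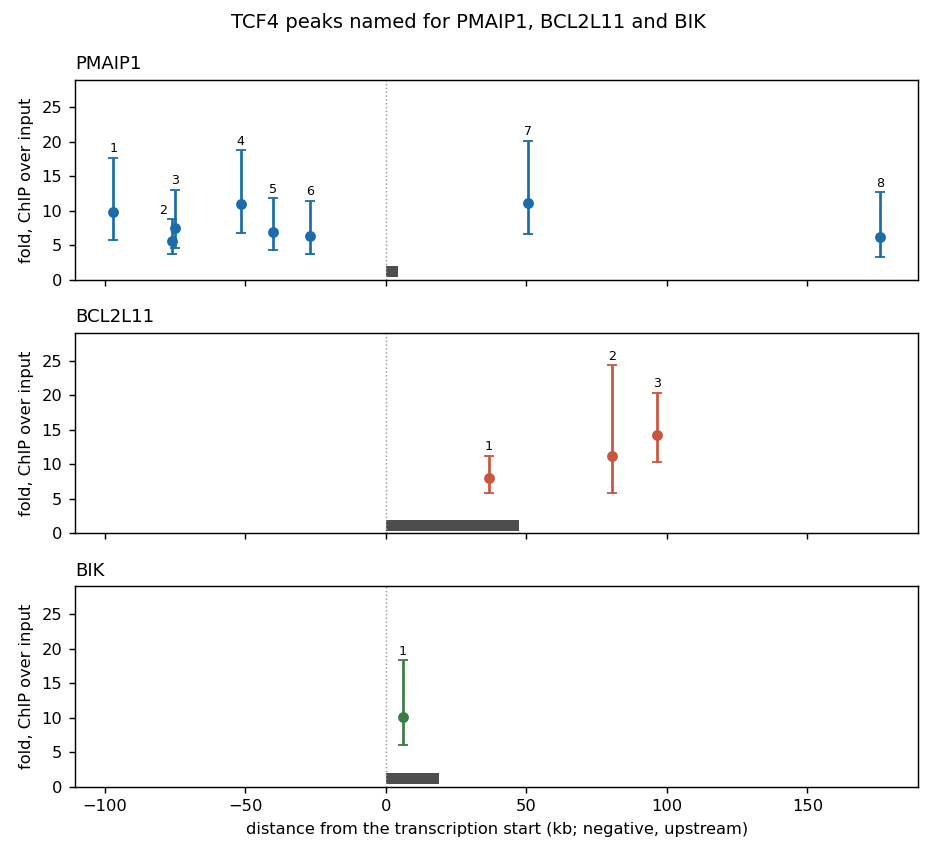
Fold of ChIP over input (vertical axis) of each peak named for PMAIP1, BCL2L11 and BIK against its distance from the TSS in kb (horizontal axis, negative upstream), with peak numbers, exact 95% intervals as bars and the gene body as a dark box from 0. The PMAIP1 peaks flank the gene at 26821 bp or more, peak 1 of BCL2L11 and the BIK peak lie within their genes, and no peak lies upstream of BCL2L11 or BIK.

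The upstream peaks of PMAIP1 began with peak 1 at chr18:57469926-57470501, which was 575 bp wide and lay 96901.5 bp from the TSS. It held 120 ChIP against 16 input reads, giving a fold of 9.82 (5.81 to 17.7). Peaks 2 and 3 formed a close pair about 75 kb upstream, at chr18:57490935-57491617 and chr18:57492019-57492626. The gap between them was 402 bp, and only 2 of the 386 gaps between neighbouring peaks of a gene in the table were as short, this one included, where the median gap was 25676 bp. Peak 2 held 126 ChIP against 29 input reads, giving a fold of 5.69 (3.78 to 8.84), the lowest of the 12 peaks. Peak 3 held 110 ChIP against 19 input reads, giving a fold of 7.58 (4.63 to 13.1). Peak 2 had the highest input count and input density of the PMAIP1 peaks, while its 126 ChIP reads compared with 120 in peak 1 and 110 in peak 3. Taken as 1 site, the pair held 236 ChIP against 48 input reads, giving a fold of 6.44 (4.70 to 8.98).

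Nearer to the gene, peaks 4, 5 and 6 of PMAIP1 followed at gaps of 10900 and 12540 bp. Peak 4, at chr18:57515286-57515876 and 51647.5 bp from the TSS, held 160 ChIP reads, the most at this gene, and 19 input reads, a fold of 11.03 (6.83 to 18.8). Peak 5, at chr18:57526776-57527601, was the widest at the gene with 825 bp and held 106 ChIP against 20 input reads, giving a fold of 6.94 (4.28 to 11.8). Its apex lay 636 bp from its left edge, at 77.1% of its width. Peak 6, at chr18:57540141-57540607, was the narrowest of the 12 with 466 bp and held 83 ChIP against 17 input reads, giving a fold of 6.39 (3.76 to 11.5). The peak nearest to the PMAIP1 start was thus among the weaker ones at the gene, though its interval overlapped those of the others.

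Downstream of PMAIP1, peak 7 at chr18:57617701-57618251 lay 46428 bp past the gene end. It held 137 ChIP and 16 input reads, and its fold of 11.2 (6.66 to 20.2) was the highest at the gene. Peak 8, at chr18:57742876-57743401 and 171551.5 bp past the gene end, held 57 ChIP against 12 input reads, giving a fold of 6.22 (3.30 to 12.7). It had the fewest ChIP reads and the lowest ChIP density of the 12 peaks, and 92.2% of the 654 peaks with a TSS distance lay at or within its distance. In the authors' deposited table the same peak had the highest local −log10 p-value of the 12, 6.70, where the others ran from 2.16 to 5.80. The median over all peaks was 4.02, and 5 of the 12 lay above it. The sources used here do not give the background behind that local value.

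The PMAIP1 peaks could hardly be ranked by enrichment. Of the 28 pairs of PMAIP1 peaks, 0 had a ratio of folds whose exact 95% interval lay above 1. The largest ratio, of peak 7 to peak 2, was 1.97 (0.980 to 4.07). The upstream peaks together held 705 ChIP against 120 input reads, giving a fold of 7.69 (6.33 to 9.42), and the downstream peaks 194 and 28, a fold of 9.07 (6.08 to 14.01). The ratio of downstream to upstream folds was 1.18 (0.750 to 1.91), so a difference between the sides was not detectable at this depth.

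Joining PMAIP1 peaks that were at most 20 kb apart gave 5 groups: peak 1 alone, the pair of peaks 2 and 3, peaks 4 to 6, and peaks 7 and 8 each alone. The gap between peaks 1 and 2 was 20434 bp and that between peaks 3 and 4 was 22660 bp, slightly over the limit, and a limit of 50 kb joined all 6 upstream peaks and left 3 groups. The 3-peak group held 349 ChIP and 56 input reads over 25.3 kb, a fold of 8.16 (6.14 to 11.03).

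**Figure D2:**
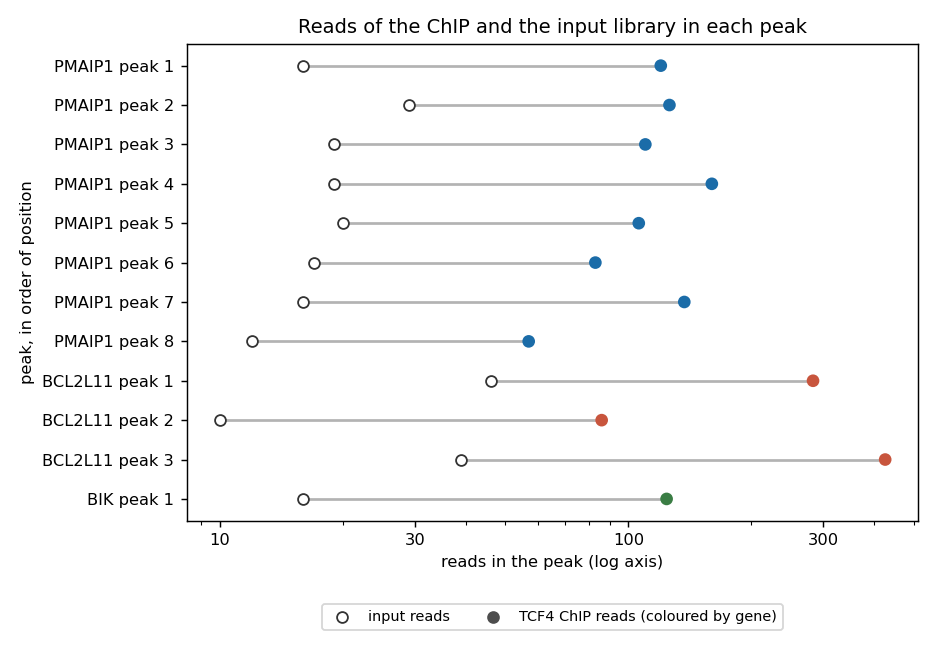
Reads of the input library (open circles) and the TCF4 ChIP library (filled circles) in each of the 12 peaks, on a log axis, before library scaling, with a line joining the counts of a peak. ChIP reads run from 57 at PMAIP1 peak 8 to 425 at BCL2L11 peak 3, and input reads from 10 to 46. Over all 661 peaks of the table, ChIP reads run from 15 to 899 and input reads from 2 to 82. The authors called the peaks from these libraries, so the gap between the counts is no result about these genes.

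PMAIP1 was among the genes with the most peaks: 4 of the 275 genes had more than its 8, and 3 genes including it had 8. Of the 51 genes with at least 4 peaks, 3 had none within the gene, PMAIP1, DDX18 and MCTP2. DDX18, an RNA helicase gene on chromosome 2, had 4 peaks upstream and 1 downstream with folds of 3.27 to 9.35, the nearest 35504 bp from the TSS. MCTP2, which encodes a membrane protein with C2 domains, had 2 on each side with folds of 4.80 to 15.0, the nearest 110970 bp away. PMAIP1 is short, and 15 of the 273 genes with an implied length were shorter. Of all peaks, 52.0% lay within a gene, and of the 116 peaks at the 69 shortest genes (up to 17049 bp) 21.6% did. The span of the PMAIP1 peaks ranked 8 among the 169 genes with at least 2 peaks.

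The assignment of the PMAIP1 peaks to that gene is the authors'. The only peak of another gene within 1000 kb was named for ZNF532, a zinc finger gene, 855.75 kb before peak 1, whose 80 ChIP reads against 25 input reads gave a fold of 4.19 (2.65 to 6.86). In the RefSeq gene table of GRCh38.p14 the neighbouring protein-coding genes of PMAIP1 are CCBE1 and MC4R. Neither those nor any other gene not named in the authors' table could be weighed as targets, because that table was limited to signature genes.

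BCL2L11 had 3 peaks on chromosome 2 (hg19), all after its start, in a span of 61.0 kb. The deposited distances imply a gene of 47532 bp. Peak 1, at chr2:111914426-111915876, lay within the gene, 36620.5 bp from the TSS and 10911.5 bp before the gene end. It held 283 ChIP against 46 input reads, giving a fold of 8.06 (5.88 to 11.3). Peak 2, at chr2:111958801-111959451, lay 33052.5 bp past the gene end and held 86 ChIP against 10 input reads, giving a fold of 11.3 (5.84 to 24.3). Peak 3, at chr2:111974001-111975427, lay 49023 bp past the gene end and held 425 ChIP against 39 input reads, giving a fold of 14.3 (10.3 to 20.4). The fold was lowest at the peak within the gene and highest at the one farthest downstream, but all 3 intervals overlapped one another. The ratio of folds was 1.40 (0.660 to 3.24) for peak 2 to peak 1. It was 1.27 (0.542 to 2.71) for peak 3 to peak 2, so an order by distance was not resolved.

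Peaks 1 and 3 of BCL2L11 were broad. They were 1450 and 1426 bp wide, ranks 28 and 29 of the 661 peaks, and peak 2 was 650 bp wide. Peak 3 ranked 13 of 661 in ChIP reads and 35 in the authors' deposited normalized log2 ratio, and peak 1 ranked 35 in ChIP reads and 191 in that ratio. Their widths were alike, and the ratio of folds of peak 3 to peak 1 was 1.77 (1.10 to 2.86). That was the 1 pair of the 31 compared within these genes whose interval lay above 1, and the interval was not adjusted for the number of pairs. The apex of peak 1 lay near its middle, at 49.5% of its width, and that of peak 3 at 73.3%, 1045 bp from its left edge. Peak 2 had an input density of 0.270, the lowest of the 12 and at or above only 5.30% of all peaks, so its fold rests on 10 input reads.

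The gap between BCL2L11 peaks 2 and 3 was 14550 bp, and that between peaks 1 and 2 was 42925 bp. No peak of another gene of the table lay within 1000 kb. The assignment to BCL2L11 is again the authors'. Its neighbouring protein-coding genes in RefSeq (GRCh38.p14), ACOXL and LOC124907867, could not be weighed as targets for the reason given for PMAIP1. Together the 3 peaks held 794 ChIP against 95 input reads, giving a fold of 10.9 (8.84 to 13.7), against 7.95 (6.68 to 9.53) for the 8 PMAIP1 peaks with 899 and 148. The ratio of these folds was 1.38 (1.04 to 1.83). Its interval treats the reads of a gene as 1 sum and leaves out the spread among its peaks. The ratio rested on BCL2L11 peak 3. Without that peak, a choice made after seeing the data, the sum was 369 ChIP and 56 input reads. That gave a fold of 8.63 (6.50 to 11.6) and a ratio of 1.08 (0.773 to 1.54). With peak 3 included, ChIP reads were nearly as many over 3 BCL2L11 peaks as over 8 PMAIP1 peaks, in a summed width of 3526 against 4820 bp.

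BIK had 1 peak, at chr22:43512576-43513227 (hg19), within the gene. It lay 6092.5 bp from the TSS and 12872.5 bp before the end of a gene whose implied length is 18965 bp. The peak was 651 bp wide and held 124 ChIP against 16 input reads, giving a fold of 10.1 (6.01 to 18.3). It was the nearest to a TSS of the 12 peaks, and 12.7% of the 654 peaks with a distance lay at or within it. Its apex was 238 bp from the left edge, and its centre of gravity 73 bp to the right of the apex. That was the second largest offset in size among the 12 peaks after PMAIP1 peak 5, where it was −83 bp. In width the BIK peak was close to BCL2L11 peak 2, and the intervals of their folds overlapped. No peak of another gene of the table lay within 1000 kb of it. The assignment to BIK is the authors' too, and its RefSeq neighbours TTLL1 and MCAT could not be weighed either.

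The 3 genes differed in how near their nearest peak was. It lay 6092.5 bp from the TSS at BIK, 26821 bp at PMAIP1 and 36620.5 bp at BCL2L11. Of the 273 genes with a distance, 193 had their nearest peak farther away than BIK, 86 than PMAIP1 and 71 than BCL2L11. Over the 12 peaks the median distance was 63348.5 bp, against 39291 bp over all peaks, and 9 of the 12 lay beyond that value. By side, 6 of the 12 were upstream, 2 within the gene and 4 downstream, where all peaks were 23.4%, 52.0% and 24.5%. The 6 upstream peaks were all of PMAIP1, so these shares follow that gene.

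**Figure D3:**
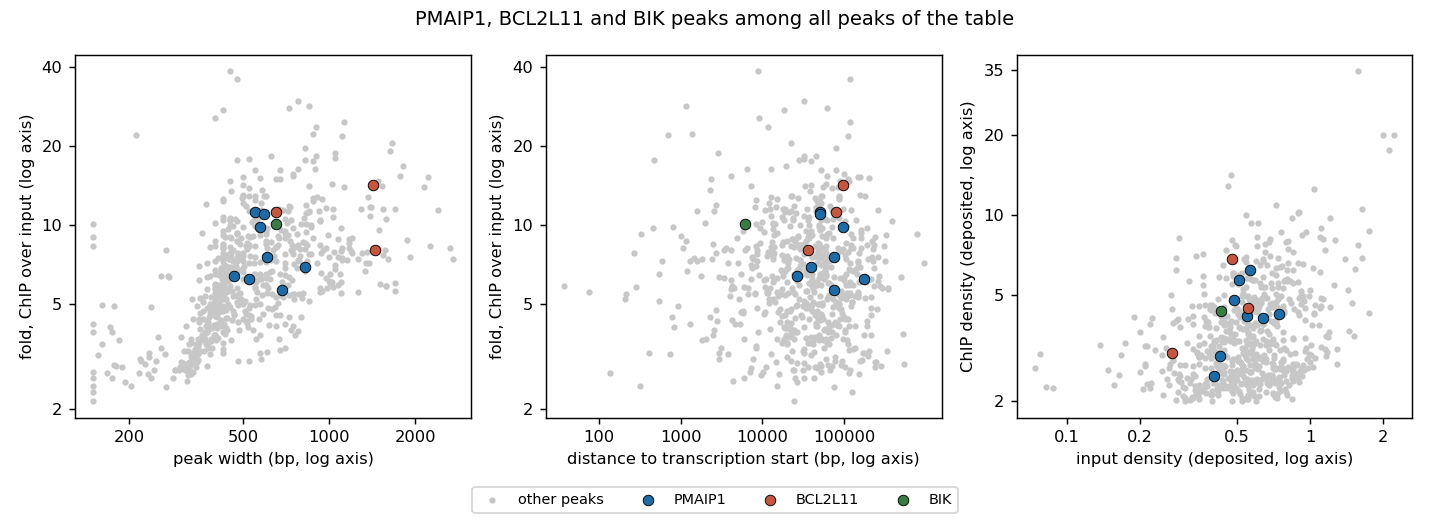
The 12 peaks (coloured by gene) among the other peaks of the table (grey), all on log axes: fold of ChIP over input against peak width in bp, fold against distance to the TSS in bp, and the authors' ChIP density against their input density. The 12 peaks lie inside the range of the other peaks in each panel, and none is at the low fold or small width edge.

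Width moved with fold over the whole table, so the 12 peaks were also set beside peaks of like width, in a class chosen after the values were seen. The 398 peaks above 400 and up to 900 bp had a median fold of 6.98, with quartiles of 5.33 and 9.36. Of the 10 BH3-only peaks in that class, 6 had a fold above that median: PMAIP1 peaks 1, 3, 4 and 7, BCL2L11 peak 2 and the BIK peak. At PMAIP1 that was 4 of 8 peaks. The 75 peaks above 1000 bp had a median fold of 8.13, and BCL2L11 peaks 1 and 3 had 8.06 and 14.3.

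Input density, the authors' normalized input reads per peak length, ran from 0.401 to 0.746 at PMAIP1 with a median of 0.529. The 398 peaks above 400 and up to 900 bp had a median of 0.531, and the 95 other peaks on chromosome 18 had 0.641 with a median width of 480 bp. It was 0.270 to 0.556 at BCL2L11 and 0.431 at BIK. ChIP density was highest at BCL2L11 peak 3 with 6.84, PMAIP1 peak 4 with 6.23 and PMAIP1 peak 7 with 5.72, and lowest at PMAIP1 peak 8 with 2.49, where the median of all peaks was 3.25. Of all peaks, 22.2% had a ChIP density at or below that of PMAIP1 peak 8, and the lowest was 2.00.

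Of the rest of the BCL2 family, the table named 1 gene. Among 8 BH3-only genes looked up, PMAIP1, BCL2L11 and BIK were named, and BBC3 (PUMA), BAD, BID, BMF and HRK were not. Among 6 anti-apoptotic genes only BCL2 was named, and BCL2L1, BCL2L2, MCL1, BCL2A1 and BCL2L10 were not. None of the 3 effector genes BAX, BAK1 and BOK was named. The table named 275 genes in all, and PMAIP1, BCL2L11 and BIK were taken because it named them. These counts are therefore no comparison between the roles. A gene is listed only if it belongs to the signature and has a peak, so the 13 family members without an entry cannot be called unbound.

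BCL2, whose protein BIM and other BH3-only proteins neutralize, lies on the same chromosome as PMAIP1. Its peaks spanned 239 kb, against 273 kb at PMAIP1, but its implied length is 196035 bp against 4347 bp. The classes within and outside a gene depend on that length. Its promoter-class peak was measured on another BCL2 transcript, with an implied length of 1427 bp. Of its 9 peaks 7 lay within the gene, 2 downstream and 0 upstream, and 1 was in the promoter class. Their folds ran from 5.28 to 9.36, and the sum of 1737 ChIP and 298 input reads gave 7.63 (6.75 to 8.66). The ratio of the PMAIP1 fold to it was 1.04 (0.839 to 1.30). The ratio of the BCL2L11 fold to it was 1.43 (1.12 to 1.85), and 1.13 (0.827 to 1.57) without BCL2L11 peak 3. The comparison is of sums of reads in 1 ChIP and 1 input library, and the genes were chosen with these values known. The intervals of these ratios leave out the spread among the peaks of a gene.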

How the data were processed

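TCF4 ChIP-seq was done in 1 ChIP and 1 input library of induced TMD8 cells. The submitters' processing notes name BWA, GATK and hg19 without versions or roles, and the sources used here give no peak caller. Foreign chromatin was added for normalization, per the labels' protocols, and whether the scaling used it is not given there. Per the file headers, the authors deposited, for peaks related to signature genes, whole-number read counts per peak, a log2 ratio, a normalized log2 ratio, normalized read densities (signal per peak length) and a pair of −log10 p-values. The table had 662 lines for 661 distinct intervals, and the repeated one was counted once. IC was taken as the input.

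The library scaling, 1.31, was the median difference between the authors' normalized log2 ratio and log2 ratio, taken back out of log2 units. Folds are ChIP over input reads times that scaling, with no pseudocount. Their exact Clopper-Pearson intervals, and the exact conditional intervals of ratios of folds, are at the 95% level. They cover counting error only, and PCR copies are not independent molecules. Only the Clopper-Pearson intervals were run on simulated counts. Those counts were drawn with counting error alone, as the intervals assume, so the run cannot show how they hold under other error. Widths are end minus start, and distances are the authors', measured from a partner region whose centre lay up to 331 bp from that of a BH3-only peak. Gene lengths are implied by the distances to start and end. Genes named beside the 3 were the BCL2 family by role, genes with a peak within 1000 kb, and genes with at least 4 peaks and none within the gene. The genes and lists were chosen with earlier results of these data known. Python 3.11.15 and SciPy 1.17.1 were used. Alternatives were the pseudocount, scaling, interval level, bound, distance offset and joining gap.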

Additional observations from a re-analysis of the deposited data

How the results depend on the processing

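The median fold of the 12 peaks was 8.94. It was 8.62 with 1 read added to each count, which gives back the authors' own normalized ratio, and 6.83 without library scaling. Each of the 12 folds stayed within its own interval under both settings. The deposited densities are the same counts per length, so their ratio is the same fold by construction and tests nothing. Without BCL2L11 peak 3, left out after seeing the data, the ratio of summed folds fell from 1.38 to 1.08 over PMAIP1 and from 1.43 to 1.13 over BCL2, and both intervals then included 1. The 12 peaks with a lower bound above 2 stayed 12 without scaling, at a bound of 3 and at the 99% level, and became 9 at a bound of 4. The median TSS distance was 63240 to 63457 bp when the offset to the partner region was taken away or added. The number of PMAIP1 groups depended on the gap: 5 at 20 kb, 7 at 10 kb, 3 at 50 kb and 2 at 100 kb, since a wider gap joins more peaks by construction, and 4 among the 6 peaks at or above the median score. No paired analysis was possible because each kind of library was made once. Depth limits the folds through input reads, 10 to 46 per peak, so that most of the 12 intervals overlapped.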
